A study of Mus musculus with 2 samples.

Results

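The neurotrophins and glial cell line-derived neurotrophic factor (GDNF) were examined together with their receptors on 2 arrays of mouse cochlear RNA. The 8 genes were the ligand genes *Bdnf*, *Ntf3* and *Gdnf* and the receptor genes *Ntrk2*, *Ntrk3*, *Ngfr*, *Ret* and *Gfra1*. They were chosen by symbol, and every probe set that the platform annotation pairs with only one of these symbols was taken. A probe set is a group of short oligonucleotides on the array that together read a transcript or several related ones. This gave 15 probe sets of 7 genes, out of 22626 probe sets that are not controls and 12393 genes. No probe set was paired with *Ntf3*, the gene of neurotrophin-3, which was not analysed here.

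Both arrays hold RNA of cochleae dissected at embryonic day 18.5, otic capsule included and vestibular tissue removed, from crosses of C57BL/6J mice heterozygous for a targeted disruption of *Igf1*, which is carried by every tissue of a mutant embryo. The *Igf1* genotype in the title of each array is the opposite of that in its source name and description. The arrays are called by their titles in quotation marks, “+/+” and “-/-”, all differences are “-/-” minus “+/+”, and no direction by genotype is drawn: if the source names hold in place of the titles, every sign turns. The labels give 8 cochleae per array, while the series design gives pools of 2 embryos with 3 pools. The targeted gene was lower on the “-/-” array by all 3 of its probe sets, with *Igf1* differences of -0.42 and -0.75 at a level where 0.25 is the 90th percentile of size and of -0.58 where it is 0.53. Its levels lay between 7.23 and 11.42 on both arrays, and since the sources used here do not give which part of the gene the null allele lacks, the labels were left unsettled.

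Neurotrophins are small secreted proteins that keep sensory and sympathetic neurons alive during development. Brain-derived neurotrophic factor (BDNF) signals through the tyrosine kinase TrkB, neurotrophin-3 mainly through TrkC, and both also bind the low-affinity receptor p75. GDNF acts by binding the co-receptor GFRα1, which then engages the receptor tyrosine kinase RET. In the inner ear, BDNF and neurotrophin-3 are made mainly by hair cells and supporting cells of the sensory epithelium, and their Trk receptors are carried by the auditory and vestibular neurons that innervate it.

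The values are log2 expression levels per probe set, with the lowest ones listed at exactly 0. A level depends on the oligonucleotides of its probe set, so levels were compared between the arrays for 1 probe set and not between genes. Each difference was centred on the median difference of all probe sets, 0.022. A single array per title leaves no replicate and no test, and the precision is limited by this number. All probe sets were divided by their mean level over both arrays into 3 bands of equal number, low, middle and high, with bounds at 5.06 and 7.68, since the spread between the arrays depends on level. The median size of a difference was 0.62 in the low band, 0.18 in the middle band and 0.089 in the high band, and the 90th percentile was 1.94, 0.53 and 0.25. In whole tissue, fewer cells of a type and less RNA per cell cannot be told apart.

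*Ntrk2* and *Ngfr* were the members with a probe set in the high band, and both differences there, -0.095 and 0.056, were within the 90th percentile for that level. Of 15 member probe sets, 2 lay in the high band, 4 in the middle band and 9 in the low band. In the high and middle bands, all member differences lay between -0.33 and 0.34, and 3 were positive and 3 negative. No member probe set of these levels was past 1 log2 unit, the size limit used in the study, where 0.345% of all probe sets in the high band and 1.43% in the middle band were past it. In the low band, 3 of 9 member probe sets were past it, all higher on the “-/-” array, where 32.1% of all probe sets of that band were past it in either direction, 17.6% in the same direction and 14.5% in the opposite one. Over all levels the share was 11.3%. The 3 of 9 is near the share of all low probe sets and is no result about the members.

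**Figure D1:**
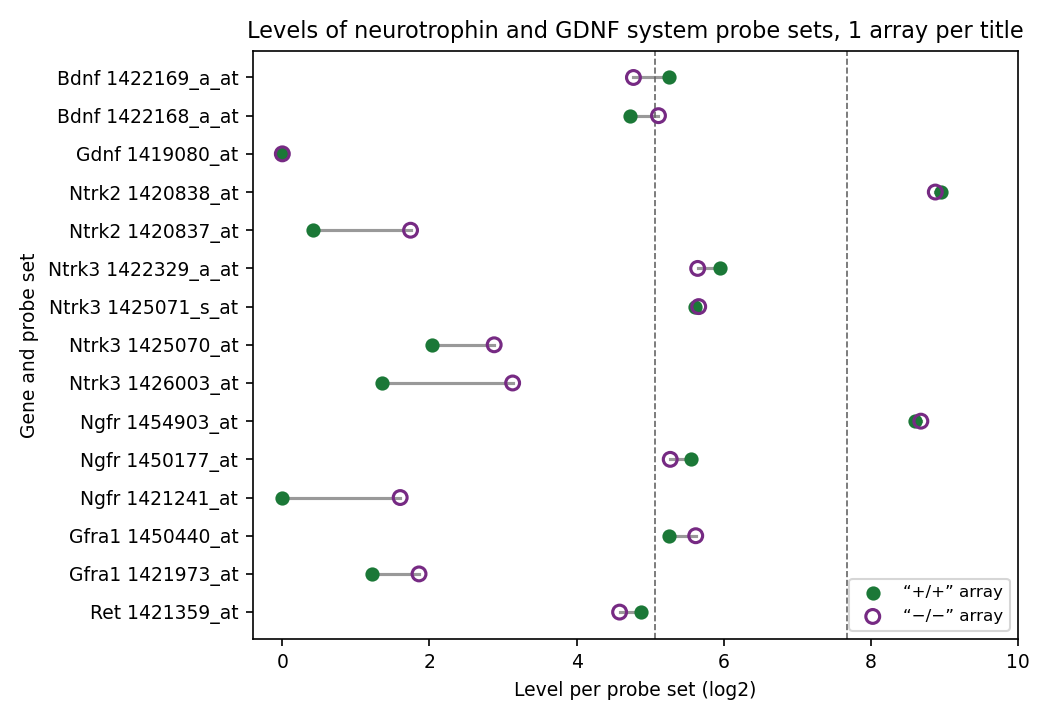
Log2 level of each of the 15 member probe sets (rows, ligand genes first, probe sets of a gene in order of mean level) on the “+/+” array (filled green) and the “-/-” array (open purple), 1 value per array, joined by a grey line. The dashed lines are the bounds of the bands of mean level, 5.06 and 7.68, and the longest lines belong to the probe sets at levels of 3.13 and lower.

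*Bdnf*, the gene of the ligand that hair cells and other sensory epithelial cells supply to auditory neurons, was read by a pair of probe sets designed from the same target sequence, both at the upper edge of the low band. Probe set 1422169_a_at was at 5.26 on the “+/+” array and 4.77 on the “-/-” array, a centred difference of -0.51. Probe set 1422168_a_at was at 4.73 and 5.11 in the same order, a difference of 0.36. The probe sets therefore moved in opposite directions, and both differences were smaller than the median size of 0.62 for the low band. Their mean was -0.071. A direction for *Bdnf* between the arrays cannot be read from these values.

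*Gdnf*, the ligand of the RET and GFRα1 complex, was read by a single probe set, 1419080_at, which was listed at 0 on both arrays. Of all probe sets, 694 were listed at 0 on both arrays, 1310 on the “+/+” array and 1028 on the “-/-” array. Since a listed 0 is the floor of the estimate, it states that no level above the floor was estimated and not that the transcript is absent. *Gdnf* was given no difference and was left out of counts of signs.

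*Ntrk2*, which encodes TrkB, the receptor for BDNF, had the highest mean level among its own probe sets at 1420838_at. This probe set was at 8.95 on the “+/+” array and 8.88 on the “-/-” array. The centred difference was -0.095, close to the median size of 0.089 for the high band. The weaker probe set, 1420837_at, was designed from the same target sequence and was at 0.42 on the “+/+” array and 1.74 on the “-/-” array. Its difference was 1.30, below the 90th percentile of 1.94 for the low band. The “-/-” array was thus lower by the strong probe set and higher by the weak one.

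*Ngfr* encodes p75, the neurotrophin receptor without a kinase, which in the cochlea is found in glia and in pillar cells. Probe set 1454903_at was at 8.60 on the “+/+” array and 8.68 on the “-/-” array, a difference of 0.056. That is less than the median size for its level. The other pair of probe sets shares one target sequence: 1450177_at was at 5.56 and 5.27, a difference of -0.31, and 1421241_at was listed at 0 on the “+/+” array and was at 1.60 on the “-/-” array. The last of these counted as past 1 log2 unit with a centred difference of 1.58, but it was read against a listed 0, so no fold was computed. The 2 probe sets of measurable level on both arrays had opposite signs.

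*Ntrk3*, which encodes TrkC, the receptor for neurotrophin-3, had 4 probe sets from 3 target sequences and none in the high band. Probe set 1422329_a_at was at 5.96 on the “+/+” array and 5.65 on the “-/-” array, a difference of -0.33. Probe set 1425071_s_at was at 5.61 and 5.66, a difference of 0.032. These are the probe sets in the middle band, and they gave opposite signs within the 90th percentile of 0.53 for that level. Probe set 1425070_at, with the target sequence of 1425071_s_at, was at 2.04 and 2.88, a difference of 0.82. Probe set 1426003_at was at 1.36 and 3.13, a difference of 1.75, the largest among the members and a 3.37-fold ratio between values close to the floor. Both weak probe sets were higher on the “-/-” array, and the strongest one was lower.

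*Gfra1*, which encodes GFRα1, the membrane-anchored co-receptor that binds GDNF, was the only member gene with several probe sets that all had the same sign. Probe set 1450440_at was at 5.26 on the “+/+” array and 5.62 on the “-/-” array, a difference of 0.34. Probe set 1421973_at, from the same target sequence, was at 1.22 and 1.86, a difference of 0.62. The first lies between the median size and the 90th percentile for the middle band, and the second is close to the median size for the low band. *Ret*, the kinase that transmits the GDNF signal, was read by 1421359_at alone, at 4.88 on the “+/+” array and 4.59 on the “-/-” array. Its difference of -0.31 was opposite in sign to those of *Gfra1* and was below the median size for the low band. Of 4 measured genes of neural crest lineages that use RET, 3 were higher on the “-/-” array, or 2 under loess, with the noradrenaline synthesis genes *Dbh* at 0.95 and *Th* at 0.85, *Hand2* at 0.028 and the endothelin receptor gene *Ednrb* at -0.35. The part of sympathetic neurons in the *Ret* level was not tested.

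**Figure D2:**
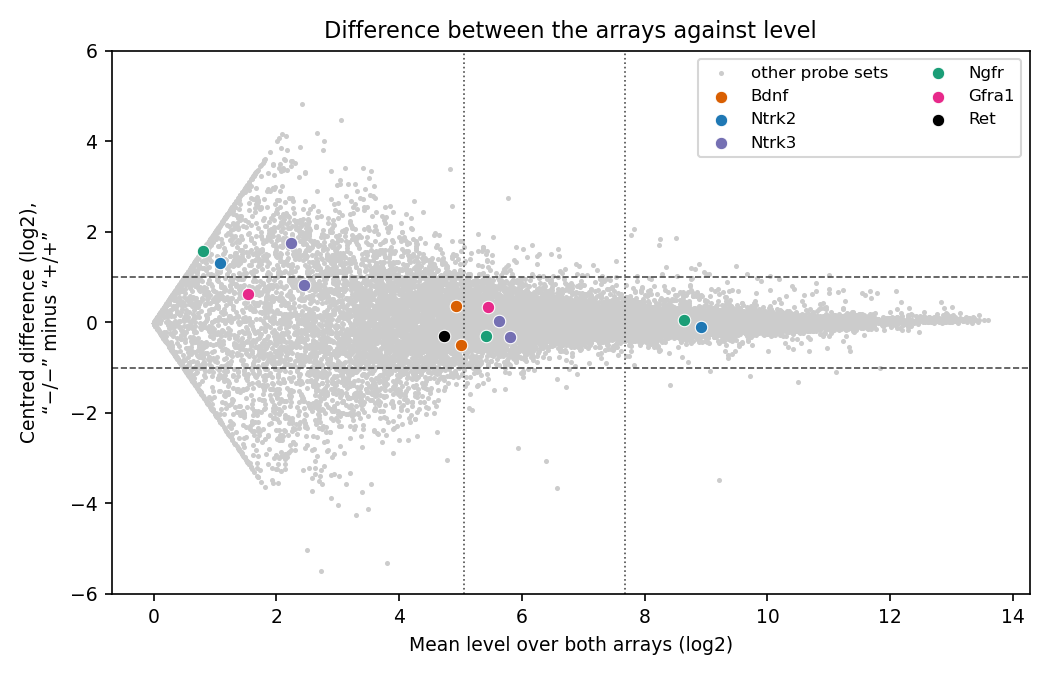
Centred log2 difference (“-/-” array minus “+/+” array) against mean log2 level over both arrays, each point a probe set, controls left out, with the 14 member probe sets that had a level on at least 1 array in colour and *Gdnf* left out. Dashed lines mark differences of 1 and -1 and dotted lines the bounds of the bands; the 3 members past 1 lie at mean levels of 2.24 and lower, where the grey points spread widest.

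Probe sets of the same gene were the only repeat measurement. Of the 5 member genes with several probe sets, *Bdnf*, *Ntrk2*, *Ngfr* and *Ntrk3* had probe sets of opposite sign, as had 51.8% of all 4956 genes with several probe sets. The deviation of a difference from the mean of its gene had an SD of 0.40 in the middle band, 0.28 in the high band and 1.02 in the low band. That mean was taken over the probe sets of a gene in all bands, so weak probe sets add to the values of the higher bands. Each member difference in the middle and high bands was smaller than the SD of all differences in its band, 0.34 and 0.19. The gap in mean level between the strongest and weakest probe set was 7.83 for *Ntrk2*, 7.84 for *Ngfr*, 3.56 for *Ntrk3*, 3.90 for *Gfra1* and 0.095 for *Bdnf*, with a median of 2.16 over all such genes. A gap of at least that of *Ntrk2* was found in 185 genes (3.73%), and among groups of probe sets from one target sequence in 42 of 3012. Which of the transcript forms of *Ntrk2* and *Ntrk3*, with or without the kinase domain, each probe set reads is not stated in the labels, the methods or the annotation.

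The direction of the members as a group depended on the probe sets used. When each gene was read from its strongest probe set, *Bdnf*, *Ntrk2*, *Ntrk3* and *Ret* were lower and *Ngfr* and *Gfra1* higher on the “-/-” array, with a median of -0.20 over 6 genes beside 0.0083 over all genes. As an average over its probe sets, *Ntrk2* had a log2 difference of 0.60, *Ntrk3* of 0.57, *Ngfr* of 0.44 and *Gfra1* of 0.48, and the median difference over the member genes became 0.46. Of the 8 member probe sets in the low band with a level on at least 1 array, 6 were higher on the “-/-” array and 2, of *Bdnf* and *Ret*, were lower, where 53.6% of all such probe sets were higher. No member gene was past 1 log2 unit on its strongest probe set, where 9.6% of all genes were.

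Among the other genes of the pathway, 47 were measured. The “-/-” array was higher for 22 and lower for 23, 2 (*Plcg1* and *Zfp369*) were listed at 0 on both arrays, and the median was -0.0068. The 3 genes past 1 log2 unit all had low levels. *Artn*, the gene of the GDNF family ligand artemin, was at 2.47 on the “+/+” array and 0.77 on the “-/-” array, a difference of -1.73. *Sos1*, a guanine nucleotide exchange factor that links receptor kinases to RAS, was at 3.23 and 1.16, a difference of -2.09. *Shc3*, a neuronal adaptor of Trk receptors, was at 1.80 and 3.76, a difference of 1.94. At 3 of 47 the count is near the share of 9.6% over all genes. All 3 lie in the low band, which holds 11 of the 47 genes and where 32.1% of all probe sets were past the limit. The count is no result about these genes.

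In the high band, none of 21 pathway genes was past 1 log2 unit, and *Sort1*, *Ncam1* and *Bex1* were past the 90th percentile of 0.25 for that level. The largest negative differences were those of *Sort1*, the proneurotrophin co-receptor sortilin, at -0.33, of the proprotein convertase gene *Furin*, at -0.22, and of the adaptor gene *Crk*, at -0.19. The largest positive ones were those of *Ncam1*, an adhesion molecule that also binds GDNF with GFRα1, at 0.32, of *Bex1* at 0.30, and of *Mapk8*, which encodes a JNK, at 0.12. Of 3 other ligands, *Artn* was lower, and *Nrtn* and *Pspn* were higher by 0.077 and 0.54. Of 6 genes of enzymes that cleave proneurotrophins or activate such enzymes, 5 were lower on the “-/-” array, or 4 when probe sets were averaged, and the median of the list was -0.12. Of 10 other receptors and co-receptors, 6 were lower and 4 higher, with a median of -0.087. Of 20 receptor adaptors and effectors, 10 were higher and 9 lower, with a median of 0.0088 that was -0.0068 among those above the median level. Of 8 genes in the list of p75 adaptors, 5 were higher and 2 lower, with a median of 0.11. That list also holds a surface partner of p75 and a downstream kinase. *Ntf5* was not analysed here.

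**Figure D3:**
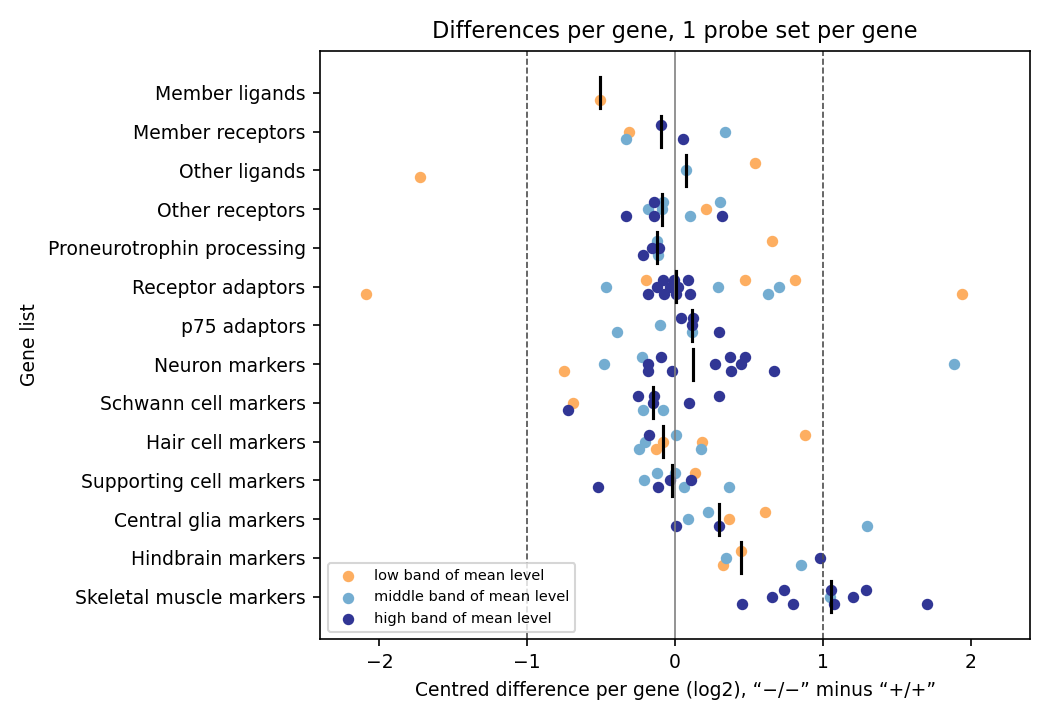
Centred log2 difference per gene (“-/-” array minus “+/+” array), 1 probe set per gene, for the member genes, the other pathway genes and marker genes of cell types, each dot a gene coloured by the band of its mean level and each black bar the median of a list. Dashed lines mark 1 and -1; the members lie between -0.51 and 0.34, while all 10 skeletal muscle genes lie to the right of 0.

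Genes of the cells that carry or supply these proteins were read on the same arrays. Of 14 neuronal genes with a difference, 7 were higher and 7 lower on the “-/-” array, with a median of 0.12. The neurofilament genes *Nefl* and *Nefm* were both at -0.18, and *Stmn2*, expressed in growing neurons, was at 0.45. Of the other high-band genes, *Tubb3* was at 0.67, *Gap43* at 0.47, *Mapt* at 0.38, *Uchl1* at 0.37 and *Prph* at 0.27. These and *Stmn2* were past the 90th percentile of 0.25 for that level. The high-band genes that were lower, *Nefl*, *Nefm*, *Isl1* at -0.096 and *Snap25* at -0.024, were within it. The differences of the list ran from -0.75 for *Prox1* to 1.88 for *Neurod1*. *Neurod1*, a differentiation factor of otic and other neurons, was the only neuronal gene past 1 log2 unit, at 4.58 and 6.49 in the middle band, and was named after its value was seen. *Neurog1*, a determination factor of early otic neurons, was listed at 0 on both arrays. Of 9 genes of Schwann and satellite cells, 7 were lower, with a median of -0.15 and with *Pmp22* at 0.094, *Fabp7* at 0.30 and the myelin gene *Mbp* at -0.72. *Fabp7* is also counted in the list of central glial genes, where its difference is the median. Of 9 hair cell genes, 4 were higher and 5 lower, with a median of -0.083 and a range from -0.24 to 0.88. Of 10 supporting cell genes, 4 were higher and 6 lower, with a median of -0.019 that became 0.0027 without centring. The hair cell genes *Myo6*, *Myo7a* and *Atoh1* were at -0.18, 0.0076 and -0.21, with levels of at least 6.39 on both arrays. *Otof*, at levels of 6.38 and 6.57, was at 0.17.

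The arrays also differed in marker genes of other tissues and cell types, some of which, such as melanocytes, also occur in the cochlea. All 7 central glial genes, all 5 hindbrain genes and all 10 skeletal muscle genes were higher on the “-/-” array, with medians of 0.30, 0.45 and 1.05. Of all 12393 genes, 6263 were higher. The differences ran from 0.0082 to 1.30, from 0.32 to 0.98 and from 0.45 to 1.71 in the same order. Among the glial genes, only *Olig1*, at 1.30, and *Fabp7* were past the 90th percentile for their level. Among the hindbrain genes, *Zic1*, at 0.98 in the high band, and *Zic4*, at 0.85 in the middle band, were past it. *Zic2*, at 0.34 in the middle band, was within it. *En1* and *En2*, both in the low band, were below the median size of 0.62 for that band. With values raised to the 25th percentile of each array, 5 of the 7 glial genes and 4 of the 5 hindbrain genes were higher. When probe sets were averaged, 6 of the 7 glial genes were. All 6 genes of lung epithelium were lower, or 5 with the raised values, with a median of -2.46. That median was -1.44 with the raised values and -1.57 when probe sets were averaged. *Sftpc*, in the high band, was at -3.49. Past 1 log2 unit were 4 of the 6 lung genes and 6 of the 10 muscle genes, where 9.6% of all genes were. Arrays of lung RNA were run by the study in parallel and were not analysed here. All 5 genes of red blood cell precursors were lower, or 3 with the raised values, with a median of -1.49, or -0.45 with the raised values. The 4 past 1 log2 unit were all in the low band, where 32.1% of all probe sets were past it. *Alas2*, in the high band, was at -0.44. Of 6 pituitary hormone genes, 3 were higher and 3 lower, or 2 and 1 with the raised values, with *Gh* at 1.87, *Pomc* at 1.46 and *Lhb* at -0.77. Of 6 melanocyte genes, 4 were lower, or 5 when probe sets were averaged, with *Dct* and *Pmel* both at -0.54 and *Kit* at 0.47. As the log2 of the summed level, the central glial list was at 11.01 on the “+/+” array and 11.34 on the “-/-” array, the hindbrain list at 9.56 and 10.51, the muscle list at 13.81 and 14.54, and the lung list at 11.20 and 8.22. The pituitary list was at 8.12 and 9.80 in the same order, the red blood cell list at 8.48 and 7.90 and the melanocyte list at 9.98 and 9.68. Such a sum is of unlogged levels and rests most on the strongest gene of a list. On the “+/+” array these were *Fabp7* at 10.5 for glia, *Zic1* at 9.33 for hindbrain and *Sftpc* at 10.94 for lung. On the “+/+” array *En1* of the hindbrain list and *Cga* of the pituitary list were listed at 0, and no other gene of these lists was on either array. *Ntrk2* and *Ntrk3* are also expressed by neurons and glia of the brain, and the part of these tissues in the member levels was not tested.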

How the data were processed

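Cochlear cRNA was biotin-labelled by the authors, hybridised to Affymetrix MOE430A arrays and scanned. The authors deposited log2 levels of each probe set, which run from 0 to 13.67. The base was read from the values, whose largest lie above the natural log of the 16-bit range, 11.09, and below its log2, 16. By the methods of the study, MAS5.0 and RMA served a first analysis, and expression levels were then estimated with multi-mgMOS of the PUMA package, without versions. The sources used here do not state which of these made the deposited log2 levels or how the arrays were scaled.

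Of 22690 probe sets, 64 controls were left out, and 20380 of the rest carry 1 symbol in the platform annotation. Members were all probe sets with 1 member symbol. Gene counts rest on the probe set with the largest mean level per gene. Probe sets listed at 0 on both arrays were given no difference. With 1 array per title, no test, p-value or error could be computed. The PPLR probability of the study, which needs all arrays, was not applied. The members and gene lists were chosen with earlier results of these data known. Of the other pathway genes, those past 1 log2 unit are named, with the 3 largest differences in each direction in the high band, and of cell type lists genes of the highest level. *Plcg1*, *Zfp369*, *Neurog1*, *En1* and *Cga*, listed at 0, and *Nrtn*, *Pspn*, *Hand2*, *Prox1*, *Neurod1*, *Otof*, *Olig1* and *En2* were named beside a count. No coordinates were used, since the array files name no genome build, and no probe sequences were used. Centring, quantile normalization and loess were tested on simulated arrays. These had noise of the same size at every level and planted differences only among higher levels, so low levels were not covered. Computation used numpy 2.4.6, pandas 2.3.3, statsmodels 0.14.6 and matplotlib 3.10.9 under Python 3.11.15. Alternatives were quantile normalization, no centring, loess against the level with a span of 0.3, values raised to the 25th percentile, levels above the median of 6.60, the mean over all probe sets, removal of probe sets ending in _x_at or _s_at, and limits of 0.5 and 2 log2 units. Leaving out probe sets listed at 0 on an array was added after the data were seen.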

Additional observations from a re-analysis of the deposited data

How the results depend on the processing

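No paired analysis was possible because each title has 1 array. Without centring, under quantile normalization, under loess and without probe sets ending in _x_at or _s_at, the signs of the 6 member genes with a difference held, and 3 member probe sets and 3 other pathway genes were past 1 log2 unit. Raising values to the 25th percentile gave 0 for both counts, and they were 0 among levels above the median, where only *Ntrk2* and *Ngfr* were measured. With a limit of 0.5 log2 units they were 6 and 8, and with a limit of 2 they were 0 and 1. Leaving out probe sets listed at 0 on an array gave 2 member probe sets. The median over member genes, -0.20, ranged from -0.22 to -0.020 under these scalings and filters and became 0.46 with the mean over all probe sets, where *Ntrk2* and *Ntrk3* changed sign, to 0.60 and 0.57. *Bdnf* ranged from -0.54 to -0.071 and *Gfra1* from 0.31 to 0.48. The differences of *Bdnf* and *Ret* were below the median size for the low band under the reported settings.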

Other observations

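Other trophic factor families of sensory neurons were read from lists chosen after the values of the neurotrophin system were seen. Of 10 measured genes of the gp130 cytokines and their receptors, 6 were lower and 4 higher on the “-/-” array, with a median of -0.036. The receptor subunit genes *Lifr* and *Il6st* were at 9.32 and 9.18 and at 9.44 and 9.47 on the “+/+” and “-/-” arrays, differences of -0.17 and 0.0019, and *Cntfr*, which encodes the ciliary neurotrophic factor receptor, differed by -0.12. The genes past 1 log2 unit were *Lif*, at 4.12 and 2.61, a difference of -1.53, and *Il11*, at 4.32 and 2.33, a difference of -2.02, both in the low band, where 32.1% of all probe sets were past it. Over all genes the share was 9.6%.

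Of the 6 measured genes of the heparin-binding factors midkine and pleiotrophin and their receptors, none was past 1 log2 unit, 4 were lower and 2 higher, and the median was -0.082. *Mdk* was at 11.70 and 11.44, a difference of -0.28, and *Ptn* at 10.93 and 10.87, a difference of -0.083. The receptor gene *Alk* had the largest difference of the list, 0.51, at 5.54 and 6.07, and *Ptprz1* was at 0.020. Of 5 measured neuregulin genes and their receptors, 3 were lower and 2 higher, with a median of -0.14. *Erbb3*, which Schwann cells need to survive along axons, was at 9.27 and 9.15, a difference of -0.14, and *Erbb2* at 7.06 and 6.68, a difference of -0.40. *Nrg3* was higher by 0.36 and *Nrg4* differed by -0.16, both in the low band, and *Erbb4* was listed at 0 on the “+/+” array and was at 0.42 on the “-/-” array.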
